A study of Drosophila melanogaster with 18 samples.

Results

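The comparison described here is the development of pupal wings that carried RNAi transgenes against both Eip93F (E93) and broad (br), between 24 and 44 h after puparium formation. It rests on 6 of the 18 poly(A) RNA-seq libraries of the series, 3 at 44 h and 3 at 24 h, all chosen by their labels. These wings carried the driver rn-Gal4 with both UAS-brRNAi and UAS-E93RNAi (E93RNAi+brRNAi below). The other genotypes, sampled at the same ages with 3 libraries in each group, were rn-Gal4; UAS-E93RNAi (E93RNAi) and rn-Gal4 alone (control), so every group, the controls included, carried the rn-Gal4 driver. Each library was made from at least 40 dissected wings of Drosophila melanogaster. The driver is best known from the wing pouch, so dissected wings also hold cells in which the transgenes may not have been expressed, among them sensory neurons and glia, tracheal cells and blood cells. The labels do not say whether the 3 replicates of a group came from separate cultures, and the p-values therefore speak only to the spread among libraries, part or all of which may be technical.

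In the fly pupa the wing is a flat sac of apposed epithelial sheets that stop dividing, secrete and shed a thin pupal cuticle, grow 1 actin-rich hair per cell and then lay down the adult cuticle. Pulses of the steroid 20-hydroxyecdysone time these steps through a cascade of nuclear receptors and transcription factors. E93 is an ecdysone-induced transcription factor that promotes adult differentiation, and br encodes zinc-finger factors that act at the start of metamorphosis. The series asked whether E93 acts in the pupal wing mainly through repression of br.

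The RNAs of the targeted genes were examined first. Levels are CPM, that is counts scaled to the size of each library after TMM scaling, and coordinates are those of the dm6 assembly. Eip93F (FBgn0264490, chr3R:21949114-22014539, plus strand) had 922, 868 and 811 CPM at 44 h, against 2359, 2414 and 2334 CPM at 24 h. The 3 libraries at 44 h all lay below the 3 at 24 h (log2 fold change -1.45 ± 0.06 (SE), adjusted p = 9.30e-15, edgeR's quasi-likelihood test with Benjamini-Hochberg adjustment, as for every adjusted p below). The mean of the libraries labelled E93RNAi+brRNAi was 867 ± 55.9 CPM at 44 h, against 1285 ± 48.0 CPM in control at that age (SD, n = 3 each, as for every mean given with ± below). At 24 h it was 2369 ± 40.8 CPM, against 2077 ± 51.7 CPM in control. Eip93F RNA was therefore not below control in the 24 h libraries labelled with the E93 transgene, and whether reads from the transgene itself enter the count was not tested.

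Of br RNA, the libraries labelled E93RNAi+brRNAi held 8.82, 7.62 and 6.46 CPM at 44 h, against 22.6, 16.6 and 14.7 CPM at 24 h, and the 44 h values all lay below the 24 h values (log2 fold change -1.24 ± 0.17 (SE), adjusted p = 9.24e-07). The E93RNAi libraries held more br RNA, with 50.2 ± 2.57 CPM at 44 h and 95.1 ± 10.9 CPM at 24 h. Control held 1.70 ± 0.645 CPM at 44 h and 14.8 ± 1.96 CPM at 24 h. The decrease of br with time was smaller in E93RNAi+brRNAi than in control (difference of log2 fold changes 1.86 ± 0.30, adjusted p = 5.12e-05). The gene rn, whose regulatory region drives Gal4, also fell, with 72.4, 72.8 and 67.7 CPM at 44 h, against 120.4, 116 and 109 CPM at 24 h (log2 fold change -0.70 ± 0.06 (SE), adjusted p = 2.96e-10). The series' labels name no Dcr-2 transgene, yet Dcr-2, the nuclease of the RNAi pathway, differed between genotypes. It averaged 52.4 ± 8.32 CPM at 44 h and 141 ± 10.7 CPM at 24 h in E93RNAi+brRNAi and 63.0 ± 4.51 CPM at 44 h and 237 ± 22.1 CPM at 24 h in control. In E93RNAi it averaged 2202 ± 366 CPM at 44 h and 5549.5 ± 424 CPM at 24 h.

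The 18 libraries held 17627937 to 22940404 counts, and the 6 compared here 18203416 to 22940404. Along the first principal component of the 2000 most variable genes, which held 96.5% of the variance of the 6 libraries, the 3 libraries at 44 h lay at 66.9 to 72.1 and the 3 at 24 h at -70.7 to -66.5. Replicate 3 of the 44 h wings stood apart from its partners: 185 of 6631 well-counted genes deviated by more than 0.5 log2 units from the group mean there, against 13 and 51 in replicates 1 and 2. Its deviations ran with gene length (Spearman correlation -0.66 across genes, which are not independent). Long genes such as dpy and fru read low in it and short ones such as Osi1 read high. A trend with length was not particular to this library. The correlation was 0.33 and 0.61 in 44 h replicates 1 and 2, and 0.17, 0.44 and -0.55 in 24 h replicates 1, 2 and 3. Wing epithelium markers were present at both ages, and vg, sd and nub fell with time, to 220.0, 234 and 367 CPM at 44 h, against 392, 448 and 475 CPM at 24 h. Among the other wing markers ct fell as well (50.8 against 102 CPM), whereas bs did not pass the test (131 against 144 CPM, adjusted p = 0.0624). In such whole-tissue RNA, fewer cells of a type and less RNA per cell cannot be told apart.

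Between 24 and 44 h most genes of the Osiris family, the apical matrix, chitin and the secretory pathway rose in E93RNAi+brRNAi wings, and most genes of the cell cycle, Notch response and wing patterning fell. Structural cuticle and wing hair genes changed in both directions, with more rises than falls. Of 9672 genes tested, 7331 (75.8%) changed at an adjusted p under 0.05, 3656 of them (37.8%) higher and 3675 (38.0%) lower at 44 h. These shares of all genes are the background for every count of list members that rose or fell with time. A change of 1 log2 unit or more was reached by 2946 genes (30.5%), of which 1902 (19.7%) were higher and 1044 (10.8%) lower. In 7517 genes (77.7%) the 3 libraries of one age did not overlap those of the other. That share is the background for every statement below that libraries did not overlap. For many of the genes named, lack of overlap was also a condition of being named and is not a result. Without 44 h replicate 3 the test called 3616 genes higher and 3572 lower. Scaling by library totals alone moved the median log2 fold change of all genes to -0.27 and the calls to 2779 higher and 4984 lower. Small changes of broadly expressed genes, given below relative to the TMM centre, therefore depend on the scaling.

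The largest single loss was that of bangles and beads (bnb; FBgn0001090, chrX:18794246-18797687, minus strand), the most abundant gene at 24 h. It took 1.02%, 1.02% and 0.86% of all counts at 44 h, against 6.28%, 6.36% and 6.33% at 24 h, or 11457, 11654 and 9889 CPM at 44 h, against 59381, 59911 and 59667 CPM at 24 h. Its RNA was thus lower at 44 h (log2 fold change -2.44 ± 0.06 (SE), adjusted p = 1.48e-18). ImpE2 (FBgn0001254, chr3L:3510974-3512681, minus strand), an ecdysone-inducible gene named for its induction in imaginal discs, was the next largest loss and had 6204, 5879.6 and 5670.5 CPM at 44 h, against 15516, 16133 and 16649 CPM at 24 h (log2 fold change -1.44 ± 0.05 (SE), adjusted p = 1.31e-16). The cuticle protein gene Cpr72Ea (FBgn0036617, chr3L:16362603-16363750, plus strand) had 223, 301 and 215 CPM at 44 h, against 5885, 4967 and 5261 CPM at 24 h, and at 44 h its libraries all lay far below those at 24 h (log2 fold change -4.45 ± 0.11 (SE), adjusted p = 7.32e-19). The serpin gene Spn43Aa averaged 2434 ± 237 CPM at 44 h and 6310.2 ± 518 CPM at 24 h. The small heat shock gene Hsp23 averaged 447 ± 25.6 CPM at 44 h and 3446 ± 72.2 CPM at 24 h, and Hsp27 888 ± 36.8 CPM at 44 h and 3133 ± 73.8 CPM at 24 h. These genes fell, as did the matrix gene tenectin (tnc), with 1613 ± 338 CPM at 44 h and 3587 ± 143 CPM at 24 h. CG1850 averaged 47.4 ± 11.5 CPM at 44 h and 3647 ± 757 CPM at 24 h and fell furthest of the 8 largest losses in CPM, by 6.27 on the log2 scale.

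The 8 largest gains in CPM were 5 Osiris genes, CG12017, CG4702 and dusky. Osi3 (FBgn0037411, chr3R:6215832-6218199, plus strand) had 18482, 20553 and 24087 CPM at 44 h, against 7.96, 11.4 and 7.19 CPM at 24 h (log2 fold change 11.22 ± 0.27 (SE), adjusted p = 7.52e-19). The one gene above it at 44 h was CG13023, singled out after its values were seen, with 34254 ± 1326 CPM at 44 h and 30963 ± 1214 CPM at 24 h. Dusky (dy; FBgn0004511, chrX:11769769-11778784, minus strand), a zona pellucida domain protein of the wing's apical surface, had 5348, 6225 and 5589 CPM at 44 h, against 6.80, 11.8 and 8.0 CPM at 24 h (log2 fold change 9.34 ± 0.20 (SE), adjusted p = 1.10e-19). Both were abundant in every 44 h library and nearly absent from every 24 h library. CG12017 averaged 8231 ± 1152 CPM at 44 h and 78.8 ± 9.20 CPM at 24 h. CG4702 averaged 5980.2 ± 750.5 CPM at 44 h and 51.5 ± 11.9 CPM at 24 h.

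Measured by fold, the 12 largest rises were led by genes with almost no counts at 24 h. CG14866 had 8866 counts at 44 h and 1 at 24 h over the 3 libraries, a ratio of scaled levels of 11666 (95% exact interval 2093 to 460822). CG13159, with 1 count at 24 h, had a ratio of 4366 (95% exact interval 783 to 172489). CG32198, also with 1 count at 24 h, had a ratio of 3592 (95% exact interval 644 to 141931). Intervals of this kind cover counting error only. CG34196, the sulfotransferase gene St4 and CG13946 had 2141, 1079 and 515 counts at 44 h and none at 24 h. They were at least 938-fold, 472-fold and 225-fold higher at 44 h against a floor of 3 counts over the group. The others, CG15888, CG42331, CG3108, dyl, Osi3 and Osi4, were counted in every 24 h library. CG15888 averaged 4214 ± 438 CPM at 44 h and 1.00 ± 0.407 CPM at 24 h. CG42331 averaged 3608 ± 395 CPM at 44 h and 1.41 ± 0.802 CPM at 24 h, and CG3108 453 ± 107 CPM at 44 h and 0.205 ± 0.0629 CPM at 24 h. Of the 12 largest falls, 11 were those of the neuropeptide-like precursor gene Nplp4, the Notch targets E(spl)m8-HLH and Brd, CG1850, CG15212, Sfp78E, the DNA polymerase subunit PolE2 and the spindle and cytokinesis genes msd1, sti, sub and tum. Nplp4 averaged 0.196 ± 0.0740 CPM at 44 h and 38.2 ± 10.3 CPM at 24 h. The log2 fold changes of these 11 ran from -7.58 for Nplp4 to -4.70 for Sfp78E. Genes whose libraries overlapped between ages could not enter these rankings.

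**Figure D1:**
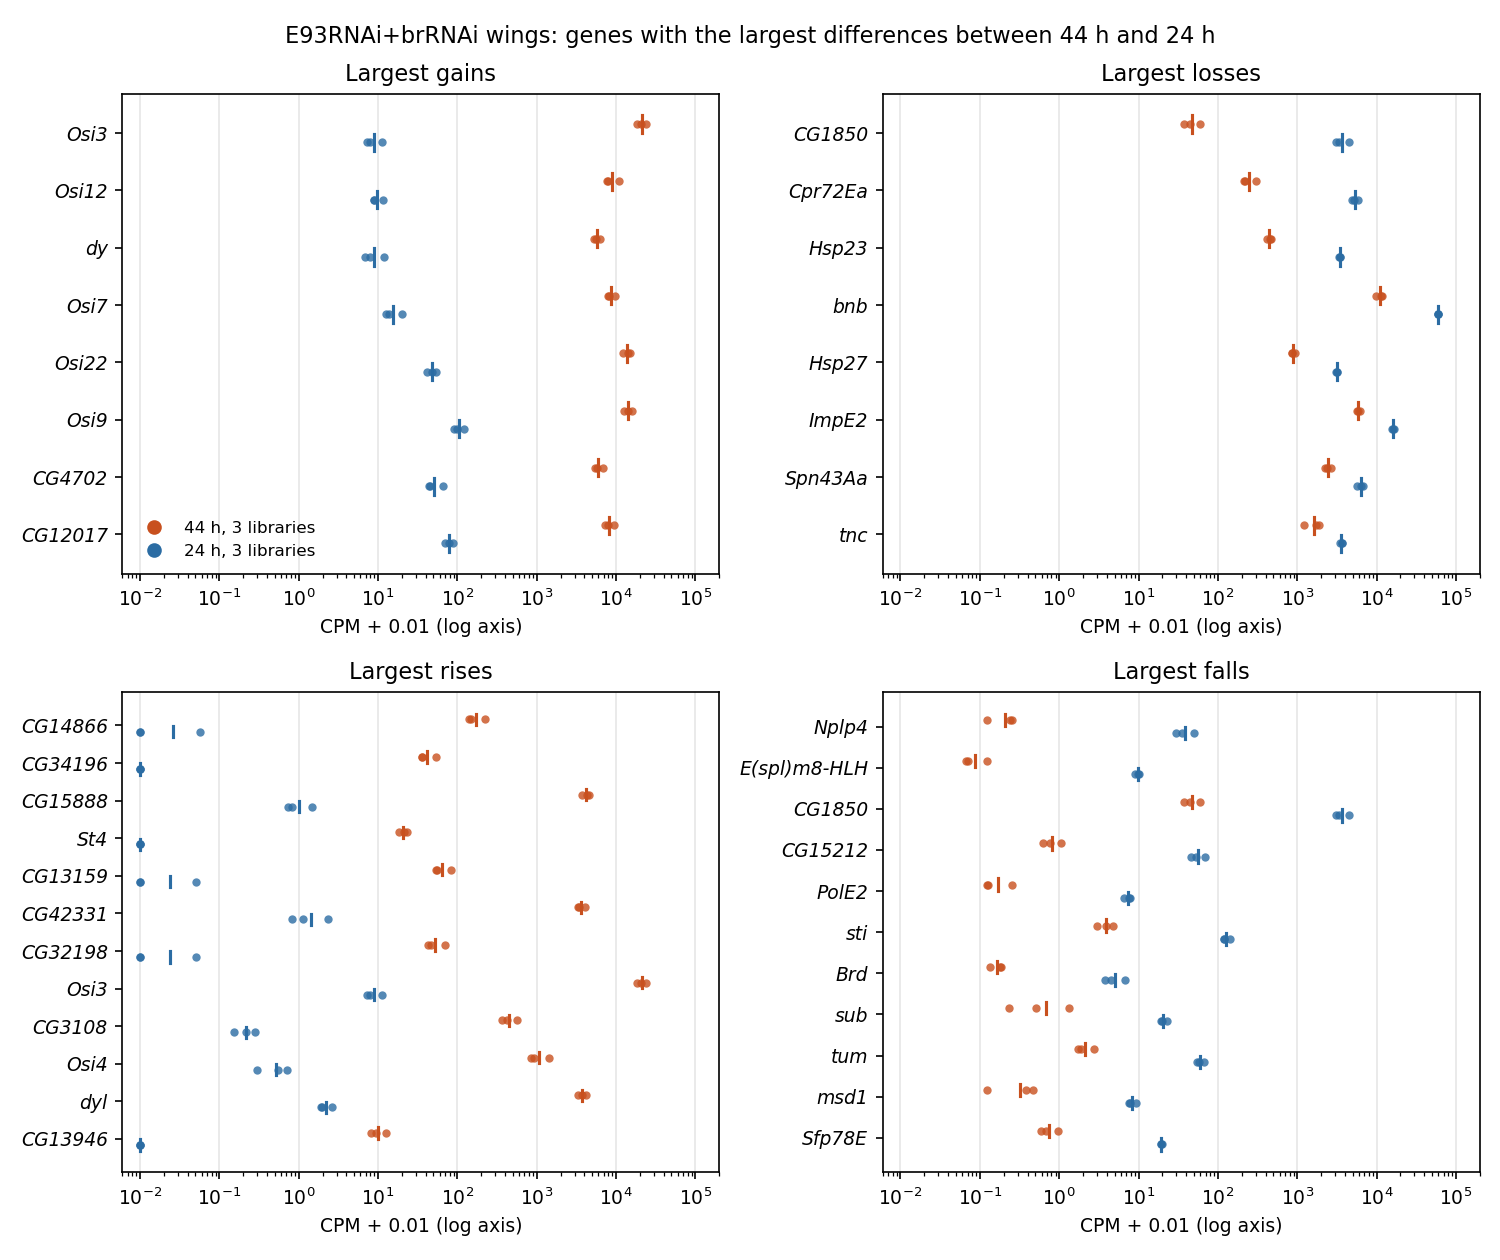
CPM of each E93RNAi+brRNAi library at 44 h and at 24 h for the genes with the largest differences between ages, with 0.01 added so that libraries at 0 can be drawn on the log axis; each point is 1 library and each bar the mean of 3. No gene's points overlap between ages because that was required of the genes drawn. Osi3 is the highest at 44 h and bnb at 24 h.

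Most genes of the ecdysone cascade changed, in both directions. Among the 33 cascade genes tested 18 were higher at 44 h, 12 were lower and 3 did not pass (37.8% of all genes rose and 38.0% fell), with a median log2 fold change of 0.37 (0.35 over the same genes in control). Hr3 (FBgn0000448), a nuclear receptor induced late in an ecdysone pulse, had 1385, 1214 and 986 CPM at 44 h, against 52.6, 86.1 and 46.9 CPM at 24 h. All 3 values at 44 h lay far above those at 24 h (log2 fold change 4.27 ± 0.16 (SE), adjusted p = 1.58e-15). Eip78C (FBgn0004865, chr3L:21226609-21266503, plus strand), another receptor of this kind, had 669, 621 and 587 CPM at 44 h, against 126, 149 and 158 CPM at 24 h and likewise did not overlap (log2 fold change 2.12 ± 0.09 (SE), adjusted p = 3.96e-15).

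The receptor for the hormone itself changed little. EcR, the ecdysone receptor, was 248, 288 and 258 CPM at 44 h, against 339.7, 326 and 301 CPM at 24 h, lower at 44 h in every library (log2 fold change -0.28 ± 0.07 (SE), adjusted p = 0.00161). Its partner usp was 97.9, 103 and 108 CPM at 44 h, against 75.6, 80.1 and 82.7 CPM at 24 h, higher in every library (log2 fold change 0.37 ± 0.05 (SE), adjusted p = 5.56e-07). In the annotation usp lies within the span of Actn, which rose too, so their reads may not be fully separated. Among the early genes, Eip74EF averaged 309 ± 41.6 CPM at 44 h and 175 ± 5.21 CPM at 24 h. Eip75B averaged 489 ± 27.0 CPM at 44 h and 269 ± 9.32 CPM at 24 h, and both rose, by 0.82 and 0.86 on the log2 scale. Hr4 averaged 77.8 ± 7.42 CPM at 44 h and 37.7 ± 5.51 CPM at 24 h and rose. Hr38 was scarce, with 1.32 ± 0.0800 CPM at 44 h and 0.313 ± 0.0658 CPM at 24 h. The mid-prepupal factor ftz-f1 had 1.79, 2.37 and 1.39 CPM at 44 h, against 11.3, 10.8 and 10.3 CPM at 24 h and fell (log2 fold change -2.54 ± 0.15 (SE), adjusted p = 1.53e-12). Blimp-1, a repressor of ftz-f1, had 419, 424 and 262 CPM at 44 h, against 80.0, 101 and 83.0 CPM at 24 h and rose (log2 fold change 2.07 ± 0.14 (SE), adjusted p = 3.12e-11). Its lowest 44 h value was that of replicate 3.

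Among genes that set the hormone's level inside the cell, RNA of the importer fell, while RNA of the inactivating enzyme and of a transporter rose. Oatp74D, the Ecdysone Importer, had 37.1, 39.0 and 44.4 CPM at 44 h, against 107, 97.8 and 98.4 CPM at 24 h and fell (log2 fold change -1.33 ± 0.06 (SE), adjusted p = 2.40e-14). Cyp18a1, which inactivates the hormone by 26-hydroxylation, had 72.9, 81.4 and 78.3 CPM at 44 h, against 9.81, 8.05 and 7.55 CPM at 24 h and rose (log2 fold change 3.19 ± 0.09 (SE), adjusted p = 4.69e-18). E23, an ABC transporter of the ecdysone response, rose too, with 133, 140.4 and 129.5 CPM at 44 h, against 14.8, 15 and 12.5 CPM at 24 h (log2 fold change 3.25 ± 0.08 (SE), adjusted p = 9.91e-19). None of these 3 genes had overlapping libraries, as in 77.7% of all genes.

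Among the classic ecdysone-inducible genes of imaginal discs, ImpE1 had 2065, 2348 and 1931 CPM at 44 h, against 57.0, 72.2 and 51.8 CPM at 24 h (log2 fold change 5.13 ± 0.13 (SE), adjusted p = 1.76e-18). ImpE3 averaged 38.2 ± 6.25 CPM at 44 h and 2.47 ± 0.657 CPM at 24 h and rose too, while ImpE2 and ImpL2 fell (-1.44 and -1.33). ImpE1 and ImpE2 thus changed in opposite directions within the same libraries. Vrille (vri), a bZIP repressor, averaged 943 ± 71.2 CPM at 44 h and 133 ± 7.34 CPM at 24 h. The coactivator tai averaged 227 ± 21.9 CPM at 44 h and 128 ± 5.60 CPM at 24 h, and crc, the fly ATF4, 2205 ± 27.5 CPM at 44 h and 1432 ± 32.7 CPM at 24 h; all 3 rose. The regulator crol fell, with 303 ± 54.5 CPM at 44 h and 579 ± 36.2 CPM at 24 h. Sox14 fell too, with 43.8 ± 1.86 CPM at 44 h and 77.8 ± 2.33 CPM at 24 h. The 3 that did not pass were Hr39 (214 CPM at 44 h against 217 CPM at 24 h), Hr96 (16.9 CPM at 44 h against 16.2 CPM at 24 h) and chinmo.

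**Figure D2:**
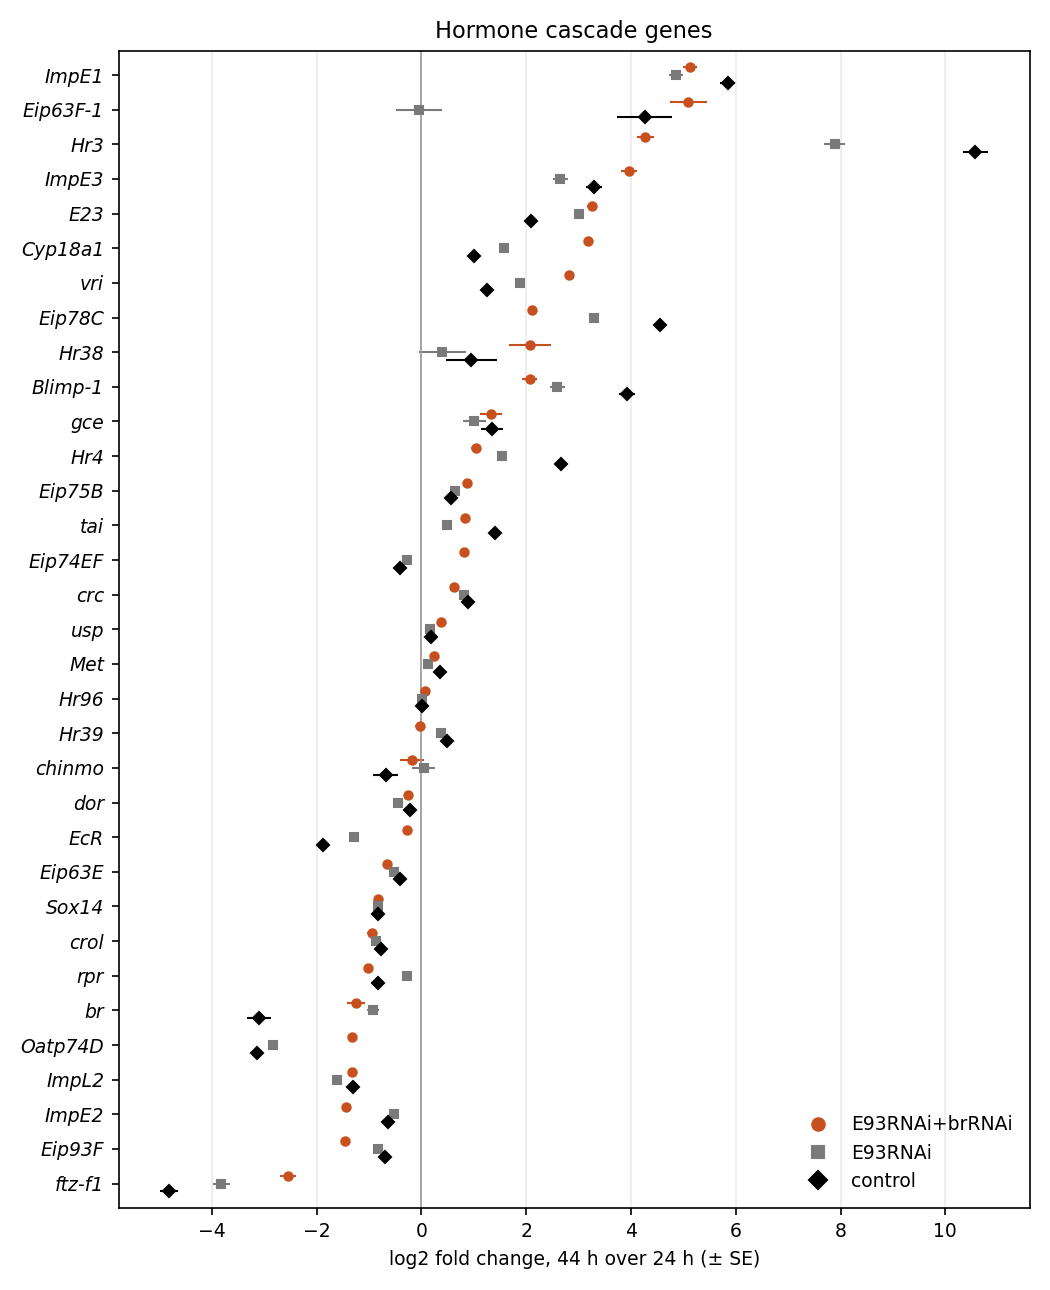
Log2 fold change between 44 h and 24 h of each hormone cascade gene in E93RNAi+brRNAi, E93RNAi and control wings, with bars of 1 SE; positive values are higher at 44 h. Hr3 rose by 4.27 in E93RNAi+brRNAi and 10.58 in control, and Eip74EF rose in E93RNAi+brRNAi and fell in control.

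The Osiris family, insect-specific transmembrane proteins known from cuticle-secreting epithelia, had the largest median change of the 37 lists. Of 22 family members with values, 18 were tested, 15 rose and none fell (37.8% of all genes rose), with a median log2 fold change of 7.38. Over the same genes the median was 5.99 in control and 8.37 in E93RNAi, so the rise was shared by all 3 genotypes. Together the family held 5.75% to 7.20% of all counts at 44 h, against 0.02% to 0.03% at 24 h. The 44 h libraries of control held 1.72% to 1.93%.

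Of the 22, 20 lie in 1 block of chromosome arm 3R (chr3R:6173549-6341424, a span of 167876 bases). In that block 19 genes were tested, of which 15 rose and 0 fell; 2 of the 19 are not Osiris genes, and 1 of these rose. The other 2 family members, Osi22 and Osi23, lie elsewhere on 3R. Osi9 (FBgn0037416, chr3R:6260211-6262105, plus strand) had 12744, 14327 and 15875 CPM at 44 h, against 91.5, 122 and 100.4 CPM at 24 h. Osi12 (FBgn0037419, chr3R:6278531-6282495, plus strand) had 7834, 7743 and 10942 CPM at 44 h, against 8.90, 11.7 and 8.84 CPM at 24 h. Osi7 had 7963, 8083 and 9740.5 CPM at 44 h, against 13.8, 19.8 and 12.4 CPM at 24 h. All 3 were abundant in every 44 h library. Osi22, outside the block, had 12202, 14153 and 14992 CPM at 44 h, against 40.9, 54.5 and 48.6 CPM at 24 h. In each of these 4 genes every 44 h library lay far above every 24 h library, though lack of overlap was required for naming them.

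Some members of the block changed little or were scarce. Near its end with the higher coordinates Osi14 had 11.2, 8.49 and 9.02 CPM at 44 h, against 9.19, 9.05 and 6.25 CPM at 24 h, with overlapping libraries (log2 fold change 0.23 ± 0.13 (SE), adjusted p = 0.132). Osi15 did not pass either, with 29 counts at 44 h and 18 at 24 h, nor did Osi16, with 5 counts at 44 h and 1 at 24 h. Osi18, Osi19 and Osi20 had too few counts to be tested (10, 3 and 19 counts at 44 h and 1, 1 and 0 at 24 h), and Osi23 had none in the 6 libraries. Osi17, which lies between Osi16 and Osi18, had 615, 682 and 619.8 CPM at 44 h, against 13.2, 17.5 and 16.6 CPM at 24 h, and rose (log2 fold change 5.34 ± 0.12 (SE), adjusted p = 4.03e-19). Per length, in the deposited RPKM, Osi3 was the highest of the family at 44 h, at 17093, followed by Osi22, Osi9 and Osi12 at 10915, 9582 and 4545. Osi5, at 4.62 RPKM, was the lowest of the 15 that rose.

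**Figure D3:**
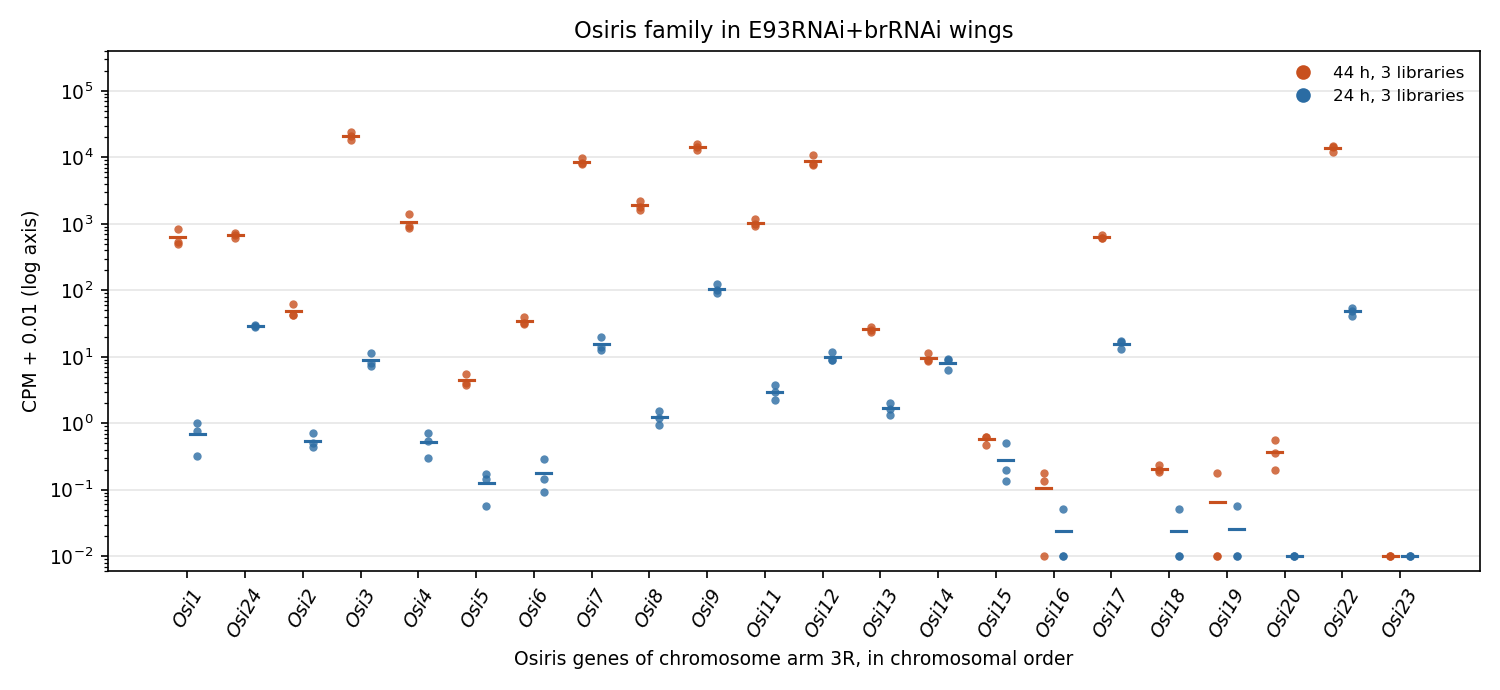
CPM of Osiris genes in chromosomal order along 3R, each point 1 library of E93RNAi+brRNAi at 44 h or 24 h and each bar the mean of 3, with 0.01 added on the log axis. From Osi1 to Osi13 every 44 h library lies above every 24 h library, whereas those of Osi14 overlap.

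Zona pellucida domain proteins anchor the apical matrix to the wing surface, and most of their genes rose. In the apical matrix list 14 of 21 genes rose and 4 fell (37.8% of all genes rose and 38.0% fell), with a median of 0.97. Beside dy, dusky-like (dyl; FBgn0066365, chr3L:4294004-4307718, minus strand) had 3317, 3726 and 4199.8 CPM at 44 h, against 1.90, 2.65 and 1.96 CPM at 24 h (log2 fold change 10.76 ± 0.18 (SE), adjusted p = 7.62e-21). miniature (m; FBgn0002577, chrX:11754273-11769508, plus strand) had 4473, 4568 and 4344 CPM at 44 h, against 145, 193 and 149 CPM at 24 h (log2 fold change 4.78 ± 0.14 (SE), adjusted p = 1.54e-17). Cypher (cyr) averaged 343 ± 29.1 CPM at 44 h and 6.33 ± 1.34 CPM at 24 h and rose as well. Neyo (neo), morpheyus (mey) and nyobe (nyo) stood at 4089, 3367 and 1629 CPM at 44 h and were already present at 24 h, at 934, 489 and 187 CPM. The falls were tnc, papillote (pot; 306 ± 30.3 CPM at 44 h and 725 ± 17.6 CPM at 24 h), CG10005 and dumpy. Dumpy (dpy), a giant matrix protein that tethers the wing to the pupal cuticle, had 383, 400.1 and 223 CPM at 44 h, against 437, 483 and 403 CPM at 24 h. Its call (log2 fold change -0.40 ± 0.15 (SE), adjusted p = 0.0216) was lost without 44 h replicate 3 (-0.17, adjusted p = 0.14).

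Structural cuticle genes changed in both directions. Among 98 genes of the Rebers-Riddiford family with values, 53 were tested; 30 rose and 13 fell, with a median of 1.18 (0.24 in control; 37.8% of all genes rose and 38.0% fell). Their summed level was lower at 44 h without overlap, 3940 to 5197 CPM at 44 h against 6073 to 7085 CPM at 24 h. Most of the 24 h sum was Cpr72Ea alone, which averaged 246 CPM at 44 h and 5371 CPM at 24 h. The lower sum rests on the fall of this gene and does not describe the rest of the family. Cpr76Bc (FBgn0036880, chr3L:19520945-19527272, plus strand) had 1573, 1586 and 2249 CPM at 44 h, against 36.7, 46.8 and 47.4 CPM at 24 h (log2 fold change 5.37 ± 0.15 (SE), adjusted p = 8.35e-18). Cpr49Ah averaged 838 ± 196 CPM at 44 h and 120.1 ± 3.16 CPM at 24 h, and Cpr73D 313 ± 15.3 CPM at 44 h and 17.3 ± 4.12 CPM at 24 h. The gene resilin, for the rubber-like protein of wing joints, averaged 28.0 ± 10.1 CPM at 44 h and 1.15 ± 0.441 CPM at 24 h. The 44 h replicate 3 was highest for Cpr76Bc and Cpr49Ah. In the other direction Cpr12A had 36.4, 44.8 and 34.2 CPM at 44 h, against 358, 334 and 327 CPM at 24 h (log2 fold change -3.14 ± 0.08 (SE), adjusted p = 1.91e-18). Edg78E, an ecdysone-dependent gene of the pupal cuticle, averaged 0.743 ± 0.163 CPM at 44 h and 7.76 ± 1.65 CPM at 24 h. Cpr72Eb, like Cpr72Ea above, fell, with 6.32 ± 1.93 CPM at 44 h and 141 ± 9.64 CPM at 24 h. Cpr100A did not pass, with 52.6, 50.8 and 66.2 CPM at 44 h, against 70.2, 48.6 and 47.0 CPM at 24 h (adjusted p = 0.835). Of 11 Tweedle, Vajk and mucin genes tested, 7 rose and 3 fell.

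Chitin genes rose as a list, 27 of 36 against 2 that fell (37.8% of all genes rose and 38.0% fell). Their median was 0.83 (0.22 in control), and 23 were higher and 7 lower under scaling by library totals. The chitin synthase kkv was high at both ages and moved little, with 858, 909 and 831 CPM at 44 h, against 792, 762 and 746 CPM at 24 h (log2 fold change 0.18 ± 0.06 (SE), adjusted p = 0.0137). This call was lost under upper quartile scaling and without 44 h replicate 2, and under library totals the direction turned (-0.10). Expansion (exp), required for chitin deposition, had 133, 136 and 147 CPM at 44 h, against 18.4, 15.9 and 13.6 CPM at 24 h (log2 fold change 3.12 ± 0.09 (SE), adjusted p = 2.48e-17). The chitin-binding Gasp had 1162, 1159 and 1463 CPM at 44 h, against 67.3, 59.9 and 51.6 CPM at 24 h (log2 fold change 4.40 ± 0.10 (SE), adjusted p = 1.55e-19). Chitinase genes differed among themselves. Cht7 had 1033, 1095 and 1231 CPM at 44 h, against 97.5, 91.6 and 86.4 CPM at 24 h (log2 fold change 3.61 ± 0.10 (SE), adjusted p = 1.21e-17). Cht6 averaged 1087 ± 101 CPM at 44 h and 87.6 ± 8.04 CPM at 24 h and rose, while Cht10, with 1712 ± 202 CPM at 44 h and 1837 ± 75.8 CPM at 24 h, did not pass. The deacetylases serp and verm rose (1.46 and 1.01), as did Cda5, with 194 ± 4.16 CPM at 44 h and 39.7 ± 2.98 CPM at 24 h. The hexosaminidase gene Hexo2 averaged 74.8 ± 9.62 CPM at 44 h and 9.28 ± 0.416 CPM at 24 h and rose.

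Genes of tanning and colour rose in 15 of 23 cases and fell in 6 (37.8% of all genes rose and 38.0% fell). Ebony (e), which makes N-beta-alanyl dopamine, had 556, 539.9 and 525 CPM at 44 h, against 20.9, 29.9 and 20.8 CPM at 24 h (log2 fold change 4.51 ± 0.09 (SE), adjusted p = 9.84e-20). Punch (Pu), the GTP cyclohydrolase of pterin cofactor synthesis, had 111, 111 and 112 CPM at 44 h, against 11.4, 13.6 and 13.6 CPM at 24 h (log2 fold change 3.12 ± 0.07 (SE), adjusted p = 4.40e-19). The pigment gene yellow (y) averaged 63.7 ± 14 CPM at 44 h and 7.27 ± 1.03 CPM at 24 h. Of its relatives, yellow-d averaged 126 ± 12.9 CPM at 44 h and 5.13 ± 0.520 CPM at 24 h, and yellow-h 138 ± 17.7 CPM at 44 h and 5.83 ± 1.32 CPM at 24 h. The scarcest of these at 24 h was yellow-d2, with 107, 116 and 136 CPM at 44 h, against 0.453, 0.474 and 0.536 CPM at 24 h. No library of these genes overlapped between ages, as in 77.7% of all genes. Another relative, yellow-e2, fell, with 0.412 ± 0.124 CPM at 44 h and 9.06 ± 1.59 CPM at 24 h. The multicopper oxidase gene Mco1 fell too, with 3.20 ± 0.404 CPM at 44 h and 20.4 ± 2.54 CPM at 24 h.

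The wing hair and bristle list held 27 genes that rose and 12 that fell among 46, against 37.8% and 38.0% of all genes. It had 14 rises and no fall of at least 1 log2 unit (23 higher and 20 lower under scaling by library totals). Multiple wing hairs (mwh; FBgn0264272, chr3L:1200786-1232700, plus strand), which limits each cell to 1 hair, had 834, 855 and 780.3 CPM at 44 h, against 60.8, 71.2 and 65.4 CPM at 24 h (log2 fold change 3.65 ± 0.07 (SE), adjusted p = 2.80e-20). Shavenoid (sha), needed for hair outgrowth, had 2407, 2302 and 1912 CPM at 44 h, against 156, 209 and 159 CPM at 24 h (log2 fold change 3.66 ± 0.10 (SE), adjusted p = 5.36e-18). Forked (f) and singed (sn), crosslinkers of actin bundles, rose as well. Forked averaged 1422 ± 68.9 CPM at 44 h and 57.0 ± 7.79 CPM at 24 h, and singed 1614 ± 9.26 CPM at 44 h and 467 ± 11.6 CPM at 24 h. Javelin (jv) averaged 279 ± 31.3 CPM at 44 h and 16.7 ± 1.19 CPM at 24 h. The filamin gene cheerio (cher) averaged 1834 ± 116 CPM at 44 h and 230.1 ± 19.5 CPM at 24 h, and dsx-c73A 2371 ± 147 CPM at 44 h and 241 ± 15.6 CPM at 24 h. All of these lay apart between ages, as did 77.7% of all genes. Actin 5C (Act5C) averaged 6424 ± 367 CPM at 44 h and 2648 ± 49.4 CPM at 24 h, and the near-identical Act42A 1870.0 ± 43.8 CPM at 44 h and 2186 ± 86.4 CPM at 24 h. How reads shared by the pair were counted is not stated. Falls in this list were small; the largest was that of Cip4, which fell by 0.92 on the log2 scale, and ena, capu and chic fell as well.

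Secretion moved with these groups in small steps. Beside the list counts here, 37.8% of all genes rose and 38.0% fell. Of 43 genes of the secretory pathway 40 rose and 1, opm, fell, with a median of 0.70 (0.80 in control; 31 higher and 6 lower under library totals). The translocon gene Sec61alpha averaged 1248 ± 51.9 CPM at 44 h and 686 ± 15.9 CPM at 24 h, and Sec63 555 ± 25.7 CPM at 44 h and 222 ± 8.4 CPM at 24 h. The cargo receptor gene logjam (loj) averaged 229.5 ± 15.5 CPM at 44 h and 69.4 ± 2.26 CPM at 24 h. Among 17 genes of the vacuolar ATPase, the proton pump of endomembranes, 15 rose and none fell, with a median of 0.84; Vha68-2 averaged 226 ± 2.76 CPM at 44 h and 117 ± 1.72 CPM at 24 h. Of 38 basement membrane and integrin genes 25 rose and 8 fell (28 and 5 without 44 h replicate 3). The tensin blistery (by) had 393, 422 and 398 CPM at 44 h, against 25.4, 28.9 and 28.6 CPM at 24 h (log2 fold change 3.87 ± 0.09 (SE), adjusted p = 2.33e-19). The integrin subunit gene if averaged 535 ± 50.0 CPM at 44 h and 192 ± 9.75 CPM at 24 h, and mys 593 ± 33.2 CPM at 44 h and 324 ± 7.50 CPM at 24 h. The collagen IV genes Col4a1 and vkg, which blood cells also make, rose by 2.06 and 2.11. Mmp1, a matrix metalloprotease, fell, with 52.8 ± 8.74 CPM at 44 h and 267 ± 5.09 CPM at 24 h. Its inhibitor gene Timp rose, with 30.7 ± 2.96 CPM at 44 h and 6.17 ± 1.00 CPM at 24 h.

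**Figure D4:**
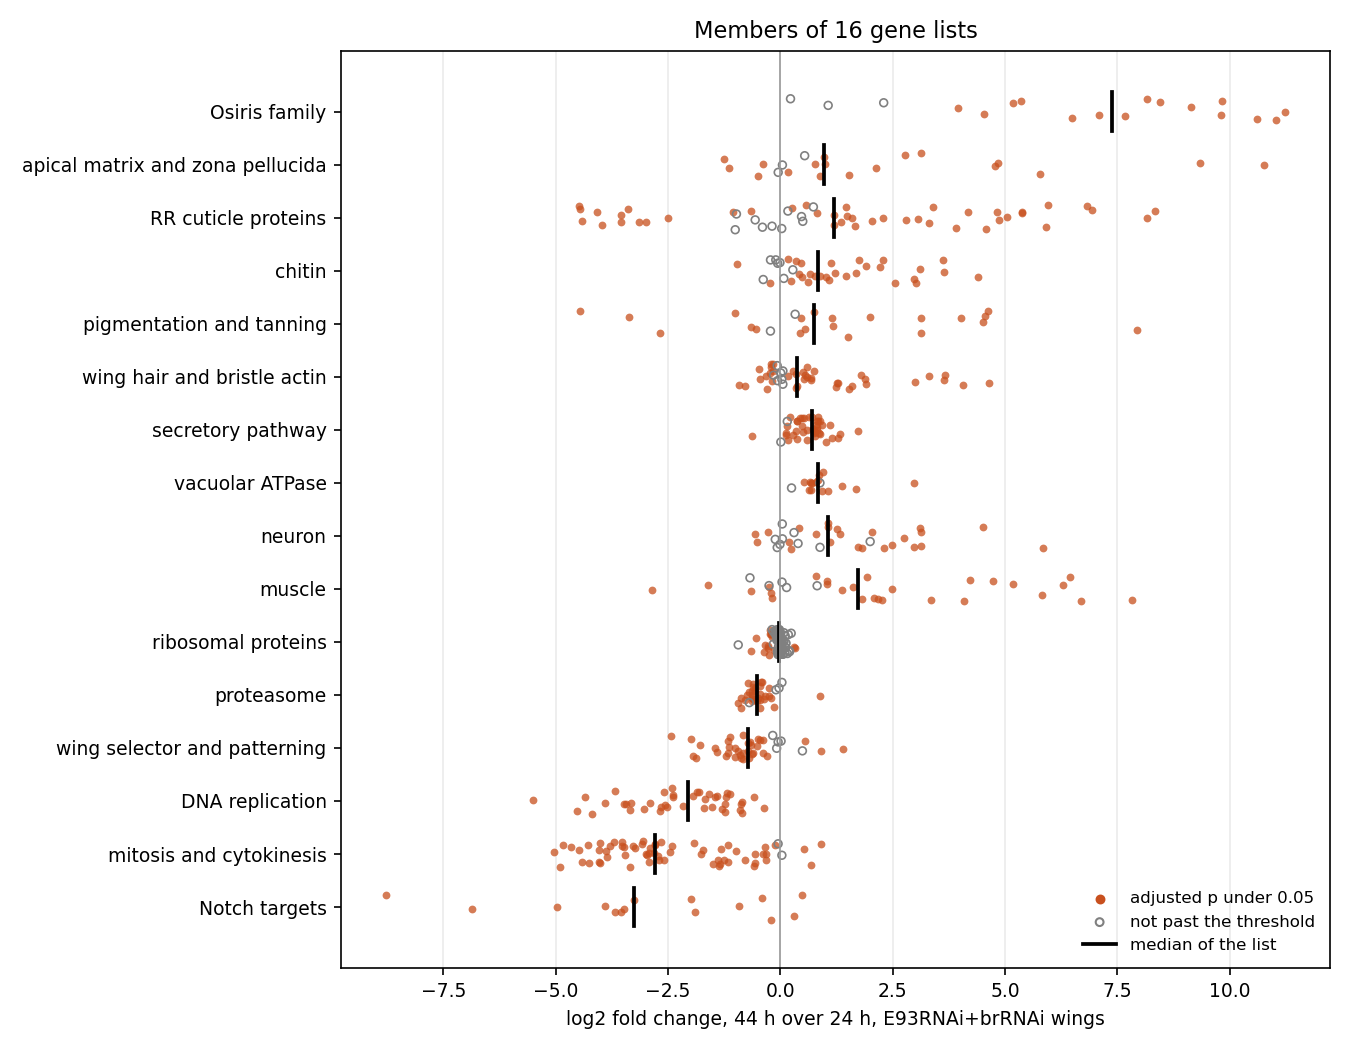
Log2 fold change, 44 h over 24 h, of every tested member of 16 gene lists in E93RNAi+brRNAi wings; each point is 1 gene, filled where it passed the test, with the list's median as a bar, and fitted values of genes with no count at 1 age depend on the prior count. Osiris genes lie far to the right, DNA replication and mitosis genes to the left, and the secretory list is shifted by under 1 in most members.

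Cell cycle genes fell almost without exception. All 42 DNA replication genes tested were lower (38.0% of all genes were), with a median of -2.06, and 60 of 65 genes of mitosis and cytokinesis were lower, with a median of -2.79. The replication clamp PCNA had 6.23, 6.52 and 4.96 CPM at 44 h, against 141, 108 and 112 CPM at 24 h (log2 fold change -4.35 ± 0.12 (SE), adjusted p = 3.79e-18). The helicase subunit Mcm7 had 4.75, 5.08 and 3.84 CPM at 44 h, against 74.4, 62.8 and 66.7 CPM at 24 h (log2 fold change -3.90 ± 0.09 (SE), adjusted p = 4.39e-19). Both were low in every 44 h library. Cyclin A (CycA) averaged 24.3 ± 2.61 CPM at 44 h and 203 ± 10.4 CPM at 24 h. Cyclin B (CycB) averaged 11.9 ± 1.94 CPM at 44 h and 156 ± 14.5 CPM at 24 h, and polo kinase 14.7 ± 2.96 CPM at 44 h and 238 ± 16.3 CPM at 24 h. String (stg), the Cdc25 phosphatase that triggers mitosis, had 147, 131 and 124 CPM at 44 h, against 871, 892 and 895 CPM at 24 h (log2 fold change -2.73 ± 0.06 (SE), adjusted p = 1.55e-19). Every 44 h library was below every 24 h library for these 6 genes, but lack of overlap was required for naming PCNA, Mcm7, CycA and stg. Fizzy-related (fzr), which drives exit from the cell cycle, had 148, 138 and 149 CPM at 44 h, against 71.7, 82.8 and 80.2 CPM at 24 h and rose (log2 fold change 0.89 ± 0.06 (SE), adjusted p = 3.58e-11). It was 1 of 3 in the list that rose, with tacc and cnn.

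Notch response genes also fell: 13 of 15 tested were lower and 2 higher, with a median of -3.25 (-2.26 in control). E(spl)m8-HLH had 0.0616, 0.0578 and 0.111 CPM at 44 h, against 10.2, 9.81 and 9.11 CPM at 24 h (log2 fold change -6.86 ± 0.28 (SE), adjusted p = 4.24e-15). E(spl)m4-BFM had 0 counts at 44 h and 185 at 24 h, at least 46.6-fold lower against the same floor. The 2 that rose, E(spl)m3-HLH and E(spl)m2-BFM, gained less than 1 log2 unit. Of 28 sensory organ genes 6 rose and 17 fell, against 37.8% and 38.0% of all genes. The proneural gene achaete (ac), which selects sensory organ precursors, averaged 1.33 ± 0.342 CPM at 44 h and 19.8 ± 0.749 CPM at 24 h. Its neighbour scute (sc) averaged 2.81 ± 0.139 CPM at 44 h and 28.7 ± 1.67 CPM at 24 h, and both fell.

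Wing patterning genes were lower in 33 of 41 cases (38.0% of all genes were) and higher in 3, with a median of -0.73. The largest falls were those of nab, a transcriptional cofactor, and teashirt (tsh). For nab the libraries had 49.9, 41.0 and 39.9 CPM at 44 h, against 233, 238 and 229 CPM at 24 h, without overlap (log2 fold change -2.42 ± 0.07 (SE), adjusted p = 1.45e-17). Teashirt averaged 12.3 ± 1.01 CPM at 44 h and 48.8 ± 5.31 CPM at 24 h. Engrailed (en), the posterior selector, averaged 64.4 ± 2.87 CPM at 44 h and 176 ± 5.37 CPM at 24 h and fell. In the vein and intervein list 11 genes rose and 25 fell among 42 (6 and 31 under library totals), against 37.8% and 38.0% of all genes. The intervein factor net averaged 9.47 ± 1.11 CPM at 44 h and 59.4 ± 0.999 CPM at 24 h. The gene shifted (shf), which acts on Hedgehog spread, averaged 57.0 ± 0.803 CPM at 44 h and 252 ± 9.22 CPM at 24 h. The EGF receptor ligand vn and the repressor aop rose, to 138 and 818 CPM at 44 h, against 57.0 and 243 CPM at 24 h. Planar polarity genes changed by small amounts: 4 rose and 13 fell among 22, with a median of -0.29. Of these 1, fat (ft), with 253 ± 46.8 CPM at 44 h and 512 ± 26.6 CPM at 24 h, reached a fall of 1 log2 unit.

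Transcripts of proteasome and mitochondrial ribosomal protein genes were lower by small amounts (library totals alone shifted the median of all genes by -0.27). Beside the counts of these lists, 37.8% of all genes rose and 38.0% fell. Of 35 proteasome genes 30 fell and 1 rose, with a median of -0.52, and Rpn1 averaged 144 ± 2.90 CPM at 44 h and 239.8 ± 3.20 CPM at 24 h. Mitochondrial ribosomal protein genes fell in 48 of 73 cases and rose in 6, with a median of -0.32 (2 rose and 49 fell without 44 h replicate 3). Cytosolic ribosomal protein genes rose in 2 and fell in 13 of 79 cases, and respiratory chain genes rose in 14 and fell in 9 of 71. These counts turned on 1 library and on the scaling. Without 44 h replicate 3 they were 1 and 19, and 8 and 14. Under library totals they were 0 and 61, and 3 and 42.

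In the cell death list 12 of 30 genes rose and 11 fell, shares near those of all genes (37.8% and 38.0%). Under library totals 9 rose and 17 fell. The inhibitor-of-apoptosis antagonist hid had 60.9, 63.3 and 51.2 CPM at 44 h, against 264, 243 and 243 CPM at 24 h and fell (log2 fold change -2.10 ± 0.07 (SE), adjusted p = 1.32e-16), as did the related grim, skl and rpr (-2.94, -2.42 and -1.01). The stress gene Gadd45 had 56.9, 77.8 and 56.7 CPM at 44 h, against 10.4, 11.8 and 12.4 CPM at 24 h and rose (log2 fold change 2.47 ± 0.11 (SE), adjusted p = 3.16e-14). The TNF receptor gene wgn rose (log2 fold change 1.20 ± 0.04 (SE), adjusted p = 4.29e-16). Diap1, the main caspase inhibitor, averaged 677 ± 18.4 CPM at 44 h and 746 ± 15.9 CPM at 24 h. The caspase genes Dronc, Drice and Dcp-1 fell as well, with log2 fold changes of -0.24, -0.31 and -0.59.

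Markers of other cell types were measured in the same libraries, and none of the summed lists was at 0. Their counts stand beside 37.8% of all genes that rose and 38.0% that fell. Muscle genes were higher in 21 and lower in 6 of 32 tested, with a summed level of 3194 to 3486 CPM at 44 h and 1434 to 1531 at 24 h (control, 3474 to 3760 and 1501 to 1570). Much of that sum came from genes that epithelia also use, among them Actn (1097 CPM at 44 h against 229 CPM at 24 h), tmod (649.7 CPM at 44 h against 212 CPM at 24 h) and Tm1 (518 CPM at 44 h against 590.0 CPM at 24 h). Of genes specific to contractile fibres, Mhc, muscle myosin, had 68.6, 70.9 and 90.2 CPM at 44 h, against 0.701, 0.90 and 0.625 CPM at 24 h (log2 fold change 6.69 ± 0.25 (SE), adjusted p = 1.01e-15). The light chain gene Mlc1 averaged 20.9 ± 5.04 CPM at 44 h and 0.788 ± 0.148 CPM at 24 h, and paramyosin (Prm) 13.6 ± 2.48 CPM at 44 h and 0.371 ± 0.103 CPM at 24 h. All 3 were present in every 44 h library and near 0 at 24 h.

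Neuronal genes rose in 21 and fell in 3 of 33 tested, though their sum, 1008 to 1295 CPM at 44 h and 1158 to 1283 at 24 h, overlapped between ages. The synaptic genes brp and Snap25 rose (1.82 and 2.48), while elav, the general neuronal marker, fell (log2 fold change -0.52 ± 0.12 (SE), adjusted p = 4.35e-04). The summed glial list was 967 to 1040 CPM at 44 h and 784 to 797 at 24 h, with 10 rises and 4 falls in 17. Large parts of that sum were Indy, at 360 CPM at 44 h against 112 CPM at 24 h, and Gli, at 105 against 275 CPM. Gli is also in the junction list. The hemocyte list was 1263 to 1331 and 943 to 978 CPM, with 13 and 7 in 22. The tracheal list was 7031 to 7491 and 3093 to 3249 CPM, with 7 and 4 in 12. The shares of all genes were 37.8% higher and 38.0% lower. The tracheal list holds Gasp and uif, which the wing itself may express (1261 CPM at 44 h against 59.6 CPM at 24 h for Gasp, and 3816 CPM at 44 h against 651 CPM at 24 h for uif). The glial marker repo averaged 9.58 ± 1.52 CPM at 44 h and 6.98 ± 0.741 CPM at 24 h, and the blood cell marker Hml 0.876 ± 0.158 CPM at 44 h and 2.40 ± 0.226 CPM at 24 h. The summed fat body list was lower at 44 h without overlap, 2079 to 2155 CPM against 3299 to 3534 at 24 h, with 5 rises and 8 falls in 22, and 1 of its members had no count at either age. The part of these cell types in the gene changes above was not tested.

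The time change was then set against that of control wings, by the contrast of the 2 differences within the same fit. Of the 1902 genes higher by at least 1 log2 unit in E93RNAi+brRNAi, 1239 were also higher by at least 1 in control (65.1% of the E93RNAi+brRNAi list and 73.4% of the 1688 in the control list). Among the 1044 lower, 837 were lower in control (80.2% and 64.1% of 1306). The change itself differed from that in control in 3726 genes (38.5% of those tested): it lay above the control change in 1934 (20.0%) and below it in 1792 (18.5%). Opposite calls in both genotypes, with the difference called as well, were found in 228 genes that rose in E93RNAi+brRNAi and fell in control, 67 of them by at least 1 each, and in 134 that did the reverse, 8 of them by at least 1.

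In the hormone cascade list 11 of 33 genes lay above the control change and 11 below (20.0% and 18.5% of all genes did). The rise of Hr3 was smaller than in control (difference -6.30 ± 0.29, adjusted p = 7.22e-13). Control held 2204 ± 121 CPM at 44 h and 1.45 ± 0.345 CPM at 24 h, and the 24 h level in E93RNAi+brRNAi, 61.9 ± 21.2 CPM, was above that of control. Control had 111 ± 5.89 CPM at 44 h and 407 ± 20.5 CPM at 24 h of EcR RNA, and its fall was smaller in E93RNAi+brRNAi (difference 1.59 ± 0.11, adjusted p = 1.63e-10). Eip74EF rose in E93RNAi+brRNAi and fell in control (log2 fold change -0.41; difference 1.23 ± 0.10, adjusted p = 2.80e-09). The falls of Oatp74D and ftz-f1 were likewise smaller (differences 1.81 and 2.28), and the rise of Cyp18a1 was larger (2.19).

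Chitin genes lay above the control change in 19 of 36 cases and below it in 7, against 20.0% of all genes above and 18.5% below, so that the share below was near that of all genes. Cht7, with a log2 fold change of 3.61 in E93RNAi+brRNAi, had 82.6 ± 13 CPM at 44 h and 97.2 ± 0.658 CPM at 24 h in control (difference 3.84 ± 0.14, adjusted p = 3.68e-14). Exp and serp rose in E93RNAi+brRNAi and fell in control (-0.56 and -1.21), with differences of 3.67 and 2.67. For knk, which forms chitin into layers, and kkv, both of which fell in control (-1.88 and -1.02), the differences were 2.22 and 1.20. Of 53 cuticle genes 23 lay above and 10 below, the share below again near that of all genes. Cpr97Eb, whose change in E93RNAi+brRNAi did not pass (12.1 ± 2.60 CPM at 44 h and 13.8 ± 1.42 CPM at 24 h), fell by 5.09 on the log2 scale in control (difference 4.90 ± 0.24, adjusted p = 1.78e-12). Cpr100A, also without a called change in E93RNAi+brRNAi, had 5.93 ± 0.650 CPM at 44 h and 150.4 ± 17.8 CPM at 24 h in control (difference 4.70 ± 0.21, adjusted p = 5.65e-13). Gadd45 rose in E93RNAi+brRNAi and fell in control (difference 3.88 ± 0.17, adjusted p = 4.24e-13).

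Replication genes fell less than in control in 28 of 42 cases and further in none, and 41 of 65 mitosis genes lay above the control change and 3 below (20.0% and 18.5% of all genes did). PCNA was 5.90 ± 0.834 CPM at 44 h in E93RNAi+brRNAi against 1.97 ± 0.0932 CPM in control, and 120.3 ± 17.8 CPM at 24 h against 198 ± 7.93 CPM (difference 2.30 ± 0.22, adjusted p = 3.76e-08). Stg fell further than in control (difference -1.02 ± 0.08, adjusted p = 1.68e-09). In the apical matrix list 13 of 21 lay below the control change, against 18.5% of all genes, and 4 lay above, near the 20.0% of all genes. Miniature had 5549.9 ± 182 CPM at 44 h and 15.4 ± 4.74 CPM at 24 h in control, and its rise was smaller in E93RNAi+brRNAi (difference -3.71 ± 0.19, adjusted p = 2.38e-12). Sha and mwh rose less as well (differences -2.56 and -1.66), as did e and Pu (differences -3.68 and -3.47). At 24 h e and Pu averaged 23.9 and 12.8 CPM in E93RNAi+brRNAi, against 2.25 and 1.83 CPM in control. At 44 h they averaged 540 and 112 CPM, against 655.5 and 177.5 CPM in control. In the Osiris family 9 of 18 lay above and 5 below, with the same shares of all genes: Osi7 and Osi12 rose more (differences 3.02 and 3.0) and Osi22 and Osi9 less (differences -2.51 and -1.05). Osi22 and Osi9 were nevertheless above control at both ages. At 44 h they averaged 13782 and 14316 CPM, against 6676.5 and 6220 CPM in control. At 24 h they averaged 48.0 and 105 CPM, against 4.09 and 22.0 CPM in control.

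Some of the widest differences were in genes outside the lists. CG14627 had 197, 184 and 289.6 CPM at 44 h, against 1.48, 1.8 and 1.12 CPM at 24 h in E93RNAi+brRNAi. In control it averaged 0.466 ± 0.132 CPM at 44 h and 1.8 ± 0.431 CPM at 24 h. Sona, a secreted metalloprotease of the ADAMTS family, averaged 33.8 ± 5.48 CPM at 44 h and 13.3 ± 3.17 CPM at 24 h in E93RNAi+brRNAi and rose there. In control it averaged 0.352 ± 0.0878 CPM at 44 h and 21.6 ± 0.483 CPM at 24 h and fell (difference 7.24 ± 0.30, adjusted p = 1.45e-13). Among genes with at least 1 CPM in all 4 groups, a set chosen after its values were seen, CG14257, CG7884 and the lactate dehydrogenase gene Ldh had the largest differences above control (5.62, 5.42 and 5.24). CG14257 averaged 228 ± 54.4 CPM at 44 h and 21.9 ± 1.77 CPM at 24 h, against 1.91 ± 0.123 CPM at 44 h and 9.06 ± 0.872 CPM at 24 h in control. Ldh averaged 85.4 ± 16.1 CPM at 44 h and 4.76 ± 0.424 CPM at 24 h, against 4.03 ± 0.0383 CPM at 44 h and 8.52 ± 2.28 CPM at 24 h in control. Both rose in E93RNAi+brRNAi and fell in control. Below control, after Hr3, came fru and CG13050 (-4.54 and -3.85). The fru transcripts averaged 238 ± 64.3 CPM at 44 h and 52.2 ± 6.42 CPM at 24 h, against 573 ± 56.9 CPM at 44 h and 5.41 ± 1.57 CPM at 24 h in control. In 16 genes called with time, control had no count at either age, so their difference could not be estimated.

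**Figure D5:**
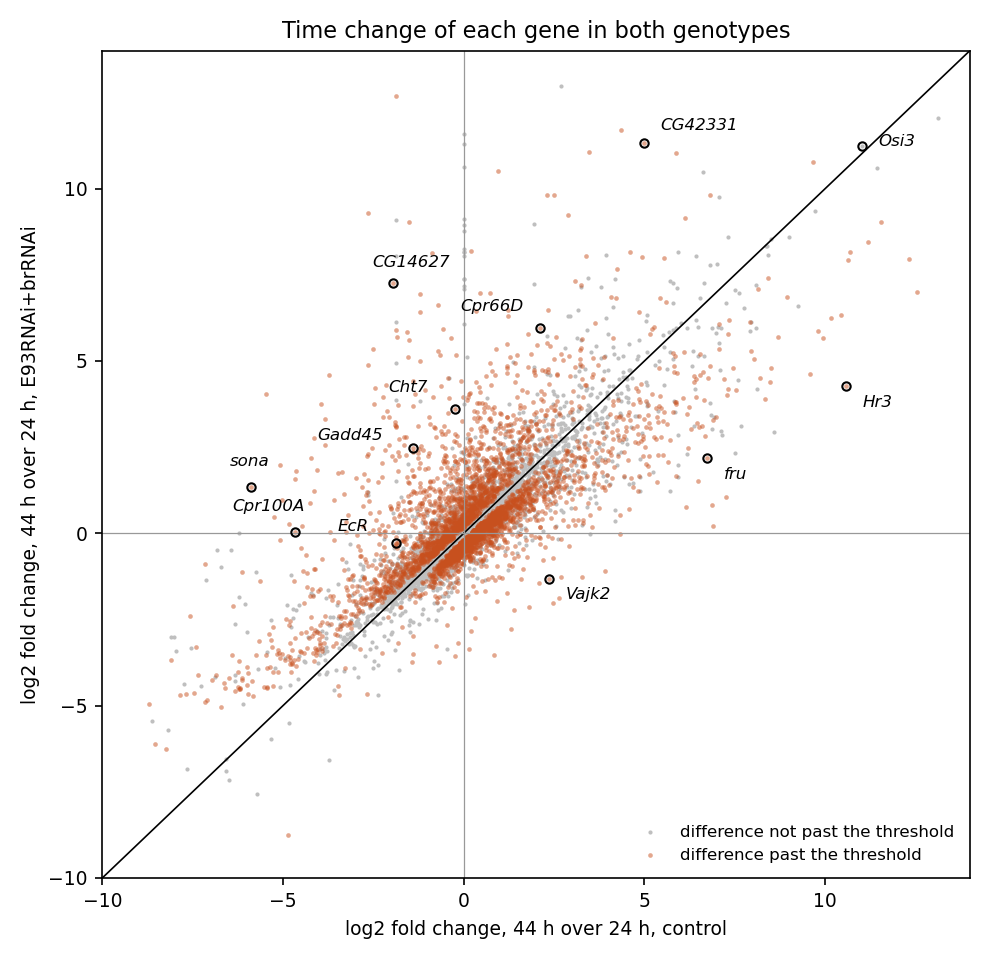
Log2 fold change between 44 h and 24 h of each tested gene in E93RNAi+brRNAi (vertical) and in control (horizontal), coloured by whether the difference between the changes was called; fitted values of genes with no count in a group depend on the prior count. The genotypes share no library; Gadd45 and sona lie in the upper left, where genes rose in E93RNAi+brRNAi and fell in control.

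Against E93RNAi alone, 3240 genes (33.5%) changed differently with time, 1690 (17.5%) above the E93RNAi change and 1550 (16.0%) below it. The E93RNAi libraries at 24 h include a replicate, number 3, in which 131 of 6508 genes deviated by more than 0.5 log2 units. Without it the counts were 1685 and 1323. Its deviations ran with gene length (Spearman correlation 0.81), and those of replicates 1 and 2 ran the other way (-0.49 and -0.68). Of the genes higher by at least 1, 1315 were also higher in E93RNAi (69.1%, and 78.9% of the 1667 there), and of those lower, 715 (68.5%, and 71.6% of 999). In 156 genes E93RNAi+brRNAi rose where E93RNAi fell, 35 of them by at least 1 each, and in 107 the reverse held, 21 of them by at least 1.

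Of 32 muscle genes 19 lay above the E93RNAi change and 2 below (17.5% and 16.0% of all genes did). Mhc had 22.2 ± 5.30 CPM at 44 h and 34.1 ± 2.08 CPM at 24 h in E93RNAi (difference 7.31 ± 0.31, adjusted p = 7.48e-13). Act88F, the actin of flight muscle, averaged 52.2 ± 15 CPM at 44 h and 20.2 ± 1.71 CPM at 24 h in E93RNAi+brRNAi. In E93RNAi it averaged 2.82 ± 0.364 CPM at 44 h and 29.5 ± 2.02 CPM at 24 h (difference 4.77 ± 0.25, adjusted p = 1.74e-11). Against control the differences of Mhc and Act88F, 0.89 ± 0.55 and -0.07 ± 0.20, did not pass (adjusted p = 0.222 and 0.806). In the chitin list 19 of 36 lay above the E93RNAi change and 1 below, with exp at -0.23 in E93RNAi (difference 3.35 ± 0.13, adjusted p = 4.23e-13). Cpr100A again stood above (5.15 ± 0.21), and so did Ldh (4.97 ± 0.22).

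Below the E93RNAi change lay Vajk2 and Vajk3 of the cuticle protein lists, which fell in E93RNAi+brRNAi and rose in E93RNAi (differences -4.84 and -4.45). Vajk2 averaged 5.48 ± 1.43 CPM at 44 h and 13.7 ± 1.70 CPM at 24 h, against 13.7 ± 0.488 CPM at 44 h and 1.19 ± 0.328 CPM at 24 h in E93RNAi. Culd had 9.97 ± 0.378 CPM at 44 h and 19.4 ± 4.24 CPM at 24 h, against 93.8 ± 1.14 CPM at 44 h and 12.6 ± 1.07 CPM at 24 h in E93RNAi (difference -3.86 ± 0.17, adjusted p = 1.33e-12). Hr3 rose less than in E93RNAi as well (-3.61 ± 0.24), where it had 1476 ± 47.9 CPM at 44 h and 6.24 ± 0.364 CPM at 24 h. Secretory and respiratory genes lay below in 18 of 43 and 26 of 71 cases and above in 2 each (16.0% and 17.5% of all genes did). Their median changes were close to those in E93RNAi, 0.70 against 0.74 for secretory and 0.05 against 0.31 for respiratory genes. Over all genes, 3022 lay below under library totals, against 1550, so such small differences may depend on the scaling.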

How the data were processed

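Poly(A) RNA of dissected pupal wings was sequenced as 51-base reads from a directional kit, per the labels' protocols, and assigned to the dm6 genome, per the submitters' processing notes. No source used here names the aligner or the counting tool, or says whether counting used strand. For each library the authors deposited raw read counts per gene, and beside them RPKM values, which serve here only for levels per gene length. Of 14489 gene IDs listed, 758 had no value; 13511 of the 13731 with values matched a symbol, and coordinates come from Ensembl release 115. FBgn0000210, an ID not in the annotation, was taken as br, an assignment that rests on its being the older ID of br and on a length implied by counts and RPKM that matched a br transcript. A length match alone does not single it out, since 2 of 180 unmatched IDs with an implied length matched a br transcript.

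All 18 libraries, in 6 groups by genotype and age, were fitted together with edgeR 4.0.16 (R 4.3.3): filterByExpr, TMM scaling and the quasi-likelihood test, with Benjamini-Hochberg adjustment over the 9672 genes left and a threshold of 0.05. Contrasts were 44 h minus 24 h in E93RNAi+brRNAi, and that change minus the same change in control and in E93RNAi. On simulated counts the fit recovered 82.5% of 200 changed genes and called 0.03% of unchanged ones. The simulation changed only those 200 of 9388 genes, around 1 mean for all groups. It therefore cannot tell how often calls err where most genes change, as here, or how calls depend on the scaling. The members and gene lists were chosen with earlier results of these data known, so list counts and medians are descriptions; a list's median did not move when genes at 0 were set to their bound. Named genes are, among those called with time, not overlapping and at 5 CPM or more in the higher group, the 12 largest rises and falls by fold, the 8 largest gains and losses in CPM and up to 4 members of each list by adjusted p. For genes named by these rules, lack of overlap between ages is a condition of the choice and not a result. The hormone cascade, Eip93F, br and rn were always named. The 6 largest differences per direction in each contrast of changes needed 5 CPM in the highest group but could overlap between ages; other list members were picked for their function after their values were seen. Alternatives were RLE scaling, library totals, upper quartile scaling, other filters, DESeq2 1.42.0, a replicate block, the 6 libraries alone and each library left out. Replicate numbers were not used to pair the libraries in the main fit. Intervals and floors of low counts cover counting error only. One gene of the patterning list, ap, was not analysed here, and 1 of the 12 largest falls is not reported here.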

Additional observations from a re-analysis of the deposited data

Results flagged for a closer look

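The time change in E93RNAi+brRNAi differed from that in control, by the test of the difference itself, above the control change in 1934 genes and below it in 1792. Above control the largest fitted log2 differences were 14.56 for CG34196, 11.94 for CG43679, 10.54 for CG17127, 9.55 for Obp73a, 9.21 for CG14627 and 8.99 for CG15615. Apart from CG14627, which was counted in every group compared, fitted differences of this size rest on groups at or near 0 counts. They depend on the prior count, so they rank genes and do not measure a fold. Leaving out control 24 h replicate 1 ended the call of CG34196 (log2 difference 12.70, adjusted p = 1). Below control they were -6.30 for the nuclear receptor gene Hr3, -6.05 for CG9698, -5.54 for C901, -4.98 for CG6431, -4.97 for the zona pellucida gene CG15020 and -4.54 for fru.

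Against E93RNAi, 1690 genes lay above and 1550 below. The largest differences above were 12.56 for CG13159, 11.95 for CG12310, 11.82 for CG43679, 9.81 for PH4alphaSG2, 9.31 for CG8620 and 9.26 for CG8708. The call of CG43679 was lost without E93RNAi 24 h replicate 1 (9.30, adjusted p = 1). Below were -8.95 for the gustatory receptor gene Gr64a, -7.07 for CG17298, -6.33 for CG15021, -5.35 for Nplp4, -5.11 for CG46025 and -4.84 for Vajk2. Dcr-2 RNA, which differed between these genotypes, was given with the targeted genes, and its part in these differences was not tested.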

How the results depend on the processing

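Over 26 settings, counts of calls stayed within 1.5 times the reported ones in 162 of 164 cases. No named gene that was called changed direction while still called. The balance of calls did turn with the scaling. Against control, library totals gave 1668 genes above and 2230 below, and upper quartile scaling 1730 and 2161. Above the E93RNAi change lay 1157 genes under library totals. A minimum of 5 CPM in the higher group left 1938 genes that changed by 1 log2 unit or more, against 2946. Scaling by library totals alone gave 3022 genes below the E93RNAi change, against 1550, and 35.8% higher among the genes called with time, against 49.9%; upper quartile scaling gave 45.3%. DESeq2 called 7294 genes (3794 higher and 3500 lower). The replicate block gave 7274 calls (3626 higher and 3648 lower), 3580 against control and 3071 against E93RNAi. Deviations of libraries of the same number correlated at -0.007, 0.023 and 0.086 between 44 h and 24 h for numbers 1, 2 and 3, over all tested genes. Their trends with gene length nevertheless had the same sign at both ages, positive for numbers 1 and 2 and negative for number 3. Whether libraries of the same number shared a batch was not tested. Without 44 h replicate 3 the calls were 7188, with 3499 against control and 3294 against E93RNAi.

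Of the named genes' values, 4928 kept their side of the threshold, 18 lost it and 8 gained it; the cause was not tested. For dpy the call was lost with DESeq2 (-0.36, adjusted p = 0.0588) and in the 6 libraries alone (-0.41, adjusted p = 0.0552). knk (0.07) and repo (0.19) lost it under library totals, and bs (-0.41) and Cpr97Eb (-0.46) gained it there. Osi15 passed without 24 h replicate 3 and Osi16 without 44 h replicate 2. List counts moved by over 1.5 times in 54 cases and by less in 982, most of them under library totals, where hair actin had 23 higher and 20 lower, junctions 8 and 21, autophagy 3 and 17, and mitochondrial ribosomal proteins 0 and 62. Genes of a few counts are limited by depth.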

Other observations

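Cytochrome P450 genes rose in 36 and fell in 12 of 63 tested (37.8% of all genes rose and 38.0% fell), with a median log2 fold change of 1.03. Cyp301a1, known from the formation of the adult cuticle, averaged 349 ± 41.1 CPM at 44 h and 10.3 ± 0.986 CPM at 24 h, Cyp49a1 127 ± 11.7 CPM at 44 h and 3.44 ± 0.314 CPM at 24 h and Cyp4s3 123 ± 4.14 CPM at 44 h and 3.71 ± 0.676 CPM at 24 h. In the other direction Cyp310a1 averaged 2.35 ± 0.132 CPM at 44 h and 27.5 ± 5.23 CPM at 24 h. None of these 4 genes had libraries that overlapped between ages, as in 77.7% of all genes.

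Chaperone genes split within their list, 6 higher and 10 lower of 18. Hsc70-3, the chaperone of the endoplasmic reticulum, averaged 4170.4 ± 97.6 CPM at 44 h and 1672 ± 66.2 CPM at 24 h and rose, Hsp26 (606 ± 41.5 CPM at 44 h and 264 ± 9.82 CPM at 24 h) and Hsp22 (138 ± 16.9 CPM at 44 h and 34.0 ± 2.23 CPM at 24 h) rose too, and Hsp83, the fly Hsp90, fell (444 ± 9.64 CPM at 44 h and 1368 ± 43.9 CPM at 24 h), like Hsp23 and Hsp27 above. Of 14 actin and tubulin genes 7 rose and 3 fell. alphaTub84B averaged 6570.2 ± 468 CPM at 44 h and 3454 ± 55.3 CPM at 24 h and betaTub97EF 87.5 ± 7.55 CPM at 44 h and 24.6 ± 2.72 CPM at 24 h. Immune genes rose in 7 and fell in 8 of 26 (5 and 11 under library totals), shares below those of all genes (37.8% and 38.0%). The serpin gene nec averaged 65.1 ± 6.52 CPM at 44 h and 7.15 ± 0.619 CPM at 24 h, the receptor gene Tl 222 ± 11.5 CPM at 44 h and 109 ± 8.78 CPM at 24 h, and the antimicrobial peptide gene Dro 0.776 ± 0.0743 CPM at 44 h and 8.17 ± 1.45 CPM at 24 h.

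Genes of RNA interference rose in 2 and fell in 12 of 17, with a median of -1.01 (-0.52 over the same genes in control). Junction and polarity genes rose in 18 and fell in 12 of 37, with a median of 0.05. The ezrin-radixin-moesin gene Moe averaged 1019 ± 33.0 CPM at 44 h and 366 ± 2.92 CPM at 24 h and the gliotactin gene Gli 105 ± 8.26 CPM at 44 h and 275 ± 9.35 CPM at 24 h. Cuticle lipid and barrier genes rose in 8 and fell in 7 of 17, and autophagy genes rose in 5 and fell in 9 of 23. For each list of this paragraph, the shares of all genes to compare were 37.8% higher and 38.0% lower. Falls in the lipid and autophagy lists were near the share of all genes, and rises in the autophagy list were fewer.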
